A study of Mus musculus with 6 samples.

Results

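The wild-type mouse aorta was described here from 3 RNA-seq libraries of whole aorta, taken from a series of 6 samples. All libraries labelled with the wild-type genotype were used, and the 3 libraries of mice lacking Jagged1 in endothelial cells (EC-Jag1KO) entered no step. The labels give the tissue as aorta and the genotype as wild-type. They give no age, sex, strain, treatment, breeding scheme or aortic segment, and they do not say whether a library came from 1 animal or from several, so the spread between the libraries may be partly technical. All 35275 genes of the deposited expression table were ranked by their mean FPKM (fragments per kilobase of gene length, scaled to the reads counted in genes of each library). The libraries held 23630029, 25130933 and 25705412 reads in genes for wild-type replicates 1, 2 and 3. At the median gene length of the table, 3 reads corresponded to between 0.0738 and 0.0803 FPKM. With a single group of 3 libraries, nothing was tested, and values are given as they fell in each library with the standard deviation (SD) between them.

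The aorta is a large elastic artery. Its middle coat, the media, is built of layers of smooth muscle cells alternating with sheets of elastin, its inner surface is a single layer of endothelial cells, and its outer coat, the adventitia, holds fibroblasts, collagen, nerves and small vessels and merges into the surrounding fat. Smooth muscle cells contract when calcium activates the kinase that phosphorylates the myosin regulatory light chain, and they also secrete most of the elastin, collagen and proteoglycans of the wall. In whole tissue, fewer cells of a type and less RNA per cell cannot be told apart.

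Of the 35275 genes, 12118 reached a mean of at least 1 FPKM and are called expressed below. The 10 genes with the highest mean FPKM held 13.1% ± 1.14 of all FPKM (SD, n = 3), the 100 highest held 32.1% ± 0.929, and the 1000 highest held 62.8% ± 0.223. Between 409 and 425 genes, depending on the library, held 50% of the FPKM. Protein-coding genes took 97.3% ± 0.259 of the FPKM.

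Contractile and cytoskeletal genes of smooth muscle formed the largest group among the nuclear genes at the top of the ranking. Of the 30 highest genes, 8 belonged to the smooth muscle filament list, 7 to the mitochondrial genome and 3 to the interstitial matrix list. Acta2, which encodes smooth muscle alpha-actin, stood at 7672, 7232 and 7245 FPKM in replicates 1, 2 and 3 (mean 7383 ± 250.2). It was the highest nuclear gene in every library. Tagln, which encodes the actin-bundling protein transgelin, stood at 4212, 4429 and 4022 FPKM. Myl6, the myosin essential light chain, stood at 3914, 4203 and 4091 FPKM, and Myl9, the regulatory light chain that is phosphorylated at contraction, at 3049, 3358 and 3238 FPKM. These values differed little between the libraries: over the 30 genes of the filament list, the summed FPKM was 32540, 33564 and 32126, or 8.59% ± 0.402 of all FPKM. All 30 genes of that list were expressed, and 0 of them had a highest to lowest ratio of 2 or more, beside 3.80% of all expressed genes, a share so low that the count alone says little of the list.

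**Figure D1:**
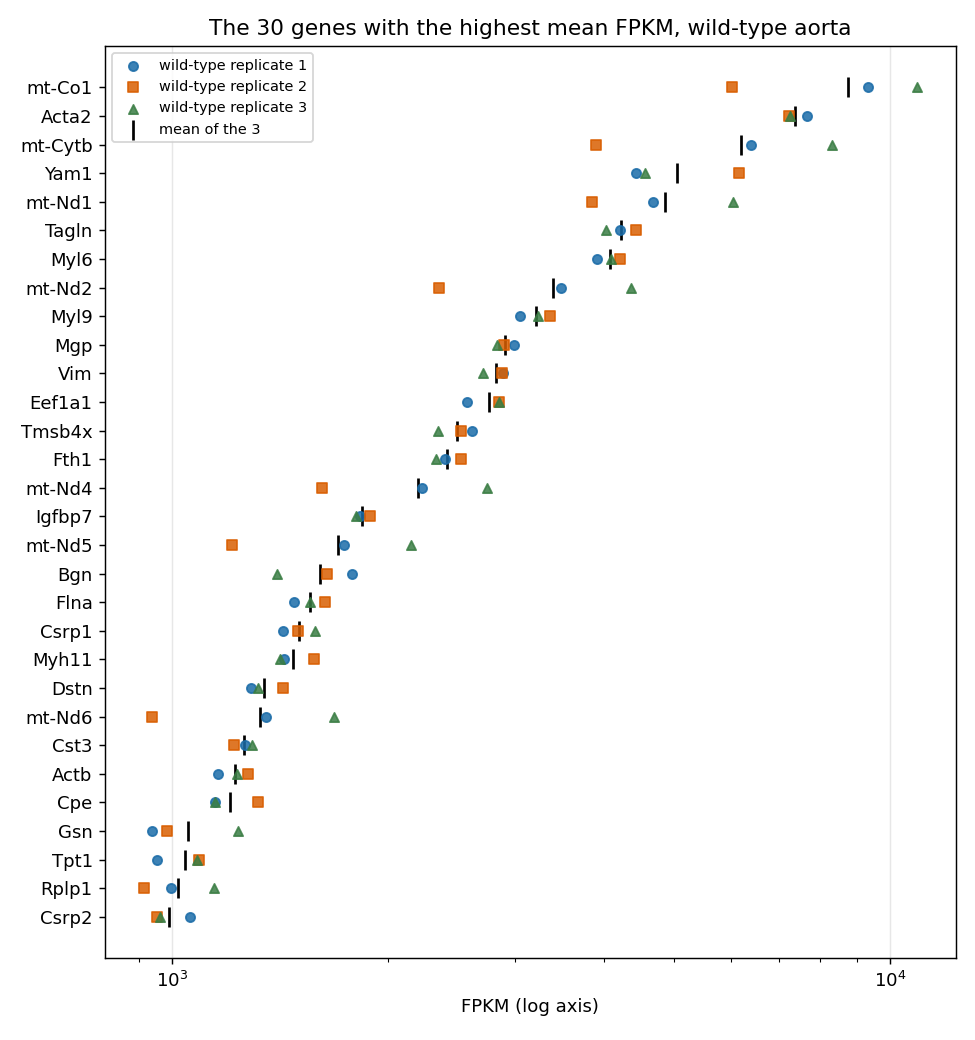
FPKM of the 30 genes with the highest mean in wild-type aorta, on a log axis, with 1 point for each library and a bar at the mean of the 3. Smooth muscle genes such as Acta2, Tagln and Myl9 sit close together across libraries, whereas the 7 mitochondrial genes are lowest in replicate 2 and highest in replicate 3.

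The sequences before the starts of the highest filament genes with an entry in the promoter table are shown because serum response factor with its partner myocardin is known to drive smooth muscle genes through a short element, the CArG box. They come from RefSeq (GRCm38.p6) and read 5′ to 3′ on the strand of the gene. Capitals mark CArG boxes, including boxes with 1 C or G among the 6 inner bases, searched on both strands in the 250 bases before the start. The Acta2 window is chr19:34255374-34255623 (minus strand), the Myl6 window chr10:128493887-128494136 (minus strand), and the Myl9 window chr2:156775214-156775419 (plus strand, ending where the gene starts in the deposited table).
Acta2: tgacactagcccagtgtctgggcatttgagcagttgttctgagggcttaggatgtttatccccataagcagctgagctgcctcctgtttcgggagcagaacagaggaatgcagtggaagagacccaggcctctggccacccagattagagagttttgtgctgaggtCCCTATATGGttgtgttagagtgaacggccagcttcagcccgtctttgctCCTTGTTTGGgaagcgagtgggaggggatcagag
Myl6: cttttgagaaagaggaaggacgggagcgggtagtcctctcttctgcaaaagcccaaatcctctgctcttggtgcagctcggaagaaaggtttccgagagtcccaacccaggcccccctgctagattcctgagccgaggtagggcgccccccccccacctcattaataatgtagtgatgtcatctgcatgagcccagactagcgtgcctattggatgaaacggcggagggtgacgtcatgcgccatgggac
Myl9: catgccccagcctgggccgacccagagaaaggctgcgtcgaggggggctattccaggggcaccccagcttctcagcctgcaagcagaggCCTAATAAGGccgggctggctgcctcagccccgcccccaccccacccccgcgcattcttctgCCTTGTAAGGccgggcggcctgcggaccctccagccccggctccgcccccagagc
In Acta2 a box began 84 bases and another 34 bases before the RefSeq start, each with 1 C or G inside. Myl9 held boxes that began 161 and 99 bases before its RefSeq start, the farther of them with only A and T inside. No such box was found in the Myl6 window, and of the 2 promoters listed for Myl6 only this window is printed. Vim, the next filament gene by level, also has an entry. Its window lies wholly inside the gene as listed in the deposited table, so no bases of it were printed. Over the filament list, 8 of 33 promoters held a box of either kind (24.2%), beside 2823 of 32851 promoters in the whole table (8.59%). These promoters belong to 26 filament genes and to 27025 genes in all, so a gene can count more than once. A box of either kind was held by 4 of 20 promoters of the endothelial list and 3 of 23 of the white fat list. Of the 100 highest genes, which include filament genes, 15 of 86 promoters held one. Such a box was therefore not shown to be particular to filament genes. Boxes with only A and T inside were in 4 of the 33 filament promoters (12.1%), beside 482 of all 32851 (1.47%). They were in 4 of the 86 and in 0 of the 20 endothelial, 23 white fat and 27 interstitial matrix promoters. These small counts were not tested. A match is a description of the letters, and no binding was measured. Serum response factor itself (Srf) was expressed at 42.9, 49.5 and 51.4 FPKM and myocardin (Myocd) at 31.7, 27.8 and 27.7 FPKM.

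Myh11, the smooth muscle myosin heavy chain and a defining marker of differentiated smooth muscle, was measured at 1432, 1576 and 1415 FPKM (mean 1474 ± 88.4, rank 21). It lies on chromosome 16 (14194527-14291408, minus strand, mm10) and has a gene length of 6632 bases in the table. Because FPKM divides by length, long genes rank higher by their share of reads. Flna, which encodes the actin cross-linker filamin A, took 1.32% ± 0.0653 of the reads in genes although it ranked 19 by FPKM. The corresponding read shares were 1.31% ± 0.0446 for Acta2 and 0.978% ± 0.0586 for Myh11. Tns1, which encodes the focal adhesion protein tensin 1, ranked 72 by FPKM and was the ninth gene by reads, with 0.508% ± 0.0430. By FPKM, which is already per length, Myl6 and Myl9 together stood 4.95 ± 0.204 times above Myh11, and Acta2 stood 5.02 ± 0.394 times above it.

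Among the 6 actin genes, Acta2 was followed by the cytoplasmic actins Actb, at 1160, 1276 and 1233 FPKM, and Actg1, at 484, 534 and 509 FPKM. The enteric smooth muscle actin Actg2 stood at 195, 238 and 187 FPKM, so that Acta2 exceeded it 36.2 ± 4.99 times. Cardiac Actc1 and skeletal Acta1 reached at most 7.39 and 1.65 FPKM. Vim, the intermediate filament vimentin that fibroblasts and endothelial cells also express, stood at 2894, 2883 and 2707 FPKM. Other genes of the filament list were the LIM protein gene Csrp1, with a mean of 1503 FPKM, and the calponin gene Cnn1, at 661, 665 and 586 FPKM. Mylk, the kinase that phosphorylates the regulatory light chain, was measured at 266, 285 and 275 FPKM. Desmin (Des) was the filament gene that varied most, at 45.4, 41.6 and 27.0 FPKM.

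The genes that couple receptors, calcium and cyclic GMP to contraction were expressed far below the filaments. Of 37 such genes 33 were expressed, and their summed FPKM was 1516, 1625 and 1325. The calcium pump of the sarcoplasmic reticulum, Atp2a2, led at 241, 273 and 252 FPKM. The GTPase RhoA (Rhoa), which raises calcium sensitivity, stood at 187, 198 and 193 FPKM. Rgs5, a regulator of G-protein signalling, was much lower in replicate 3, at 234, 229 and 56.8 FPKM, and without it the list summed to 1282, 1396 and 1268 FPKM. The natriuretic peptide receptor Npr1 stood at 101, 116 and 109 FPKM and the BK channel subunit Kcnmb1 at 64.2, 70.5 and 68.9 FPKM, and their libraries differed little. Adra1d, an alpha-1 adrenergic receptor, was measured at 36.8, 37.0 and 22.5 FPKM and was lowest in replicate 3. Its paralogs Adra1b and Adra1a each averaged less than 2 FPKM. The angiotensin receptors Agtr1a and Agtr1b stayed at or below 0.637 and 1.72 FPKM.

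Ribosomal protein genes, 83 in all, summed to 23439, 25795 and 25434 FPKM (6.53% ± 0.381 of all FPKM), between the filament and matrix lists. Matrix genes held less. The 38 interstitial matrix genes were all expressed and summed to 13057, 13308 and 11766 FPKM. Mgp, the inhibitor of arterial calcification known as matrix Gla protein, was the tenth gene of the whole ranking at 2998, 2896 and 2840 FPKM. It is also the only gene in the 30 highest that its neighbour above, Myl9, exceeded in every pairing of libraries: of the 29 neighbouring pairs in that ranking, 28 overlapped between libraries and their order is not separated. The proteoglycan gene Bgn stood at 1784, 1644 and 1399 FPKM, and Sparc, a collagen-binding matricellular protein gene, at 1057, 1088 and 812 FPKM. Fibrillar collagen genes were lower, with Col1a2 at 447, 523 and 423 FPKM, Col3a1 at 285, 344 and 269 FPKM, and Col1a1 at 232, 257 and 223 FPKM. Col1a2 exceeded Col1a1 1.95 ± 0.0734 times, although the protein product of both is assembled into the same trimers.

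Elastin (Eln, chromosome 5, 134703781-134747241, minus strand), the core of the elastic sheets, was measured at 829, 863 and 616 FPKM (mean 769 ± 133, rank 35). Replicate 3 was the lowest. Among the genes that build the microfibril scaffold and cross-link elastin, Ltbp4 stood at 455, 414 and 515 FPKM and Mfap4 at 446, 420 and 285 FPKM. Fibrillin-1 (Fbn1), the microfibril protein mutated in Marfan syndrome, was much lower, at 30.2, 32.2 and 29.9 FPKM, and Eln exceeded it 24.96 ± 3.75 times. The lysyl oxidases that cross-link elastin were led by Loxl1, at 148, 145 and 131 FPKM, above Lox, at 34.3, 35.8 and 25.1 FPKM. Fbn2, a fibrillin of development, reached at most 0.0304 FPKM. The 20 elastic fibre genes summed to 2684, 2691 and 2312 FPKM. The 23 basement membrane genes, all expressed, summed to 3228, 3253 and 2929 FPKM, led by Bcam at 572, 565 and 595 FPKM.

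The 23 adventitial fibroblast genes added up to 3016, 3071 and 3142 FPKM. The largest part was Gsn, the actin-severing protein gelsolin, at 940, 983 and 1235 FPKM, and without it the sum was 2076, 2087 and 1908 FPKM, with replicate 3 the lowest. Decorin (Dcn, chromosome 10, 97479500-97518162, plus strand), a small proteoglycan of collagen fibrils, stood at 686, 742 and 561 FPKM (mean 663 ± 92.7, rank 46). Pi16, a marker of adventitial fibroblasts, stood at 133, 166 and 136 FPKM, and Pdgfra, the receptor used to identify fibroblasts, at 14.8, 15.8 and 15.2 FPKM. Dcn and Mfap5 were also members of matrix lists, so the lists are not independent. Dpep1 stood at 70.7, 56.2 and 30.7 FPKM.

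Endothelial genes were present at much lower levels than smooth muscle genes. Pecam1 (chromosome 11, 106654217-106750628, minus strand), the adhesion molecule CD31, was measured at 172, 184 and 230 FPKM (mean 195 ± 30.6, rank 255). Myh11 exceeded it 7.68 ± 1.33 times. The von Willebrand factor gene Vwf stood at 32.6, 39.1 and 59.5 FPKM and VE-cadherin (Cdh5) at 18.3, 17.3 and 26.3 FPKM. The tight junction gene Cldn5 stood at 18.4, 16.5 and 41.7 FPKM. In each of these genes replicate 3 was the highest. The 28 endothelial genes summed to 867, 908 and 1237 FPKM, and without Cytl1, which held the largest part and is also on the cartilage list, the sum was 592, 606 and 830 FPKM. Among genes of arterial endothelium, the connexin genes Gja5 and Gja4 were measured at 14.5, 21.7 and 29.005 FPKM and at 20.52, 20.8 and 20.52 FPKM.

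Fat genes differed widely between the libraries. Adipoq (chromosome 16, 23146536-23158028, plus strand), the adipocyte hormone adiponectin, was measured at 64.6, 19.9 and 115 FPKM (mean 66.5 ± 47.5, rank 887). Its rank was 924, 3252 and 471 in the 3 libraries. Fabp4, the fatty acid binding protein of adipocytes, stood at 965, 206 and 1216 FPKM. Replicate 2 was the lowest and replicate 3 the highest in both genes. Perilipin 1 (Plin1), the coat protein of lipid droplets, was measured at 69.5, 12.9 and 92.7 FPKM, and the adipocyte transcription factor Pparg at 10.6, 2.81 and 14.8 FPKM. Summed over 28 genes, white fat markers reached 3986, 1082 and 4867 FPKM. Enzymes of fatty acid synthesis did not follow this order exactly: Scd1 stood at 849, 90.8 and 313 FPKM and Fasn at 204, 27.0 and 151 FPKM, with replicate 1 the highest. Plin4 did not follow it either, at 144, 130 and 115 FPKM.

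Brown fat genes showed the same low library. Ucp1, the uncoupling protein that makes heat in brown adipocytes, was measured at 108, 8.74 and 263 FPKM. Cidea, a lipid droplet protein, stood at 102, 18.4 and 124 FPKM and Cox8b, a cytochrome oxidase subunit of brown fat and muscle, at 74.2, 13.3 and 129 FPKM. The 17 genes of this list summed to 420, 100 and 732 FPKM. The transcription factor Zic1 was listed at 0, 0.0071 and 0.00694 FPKM.

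**Figure D2:**
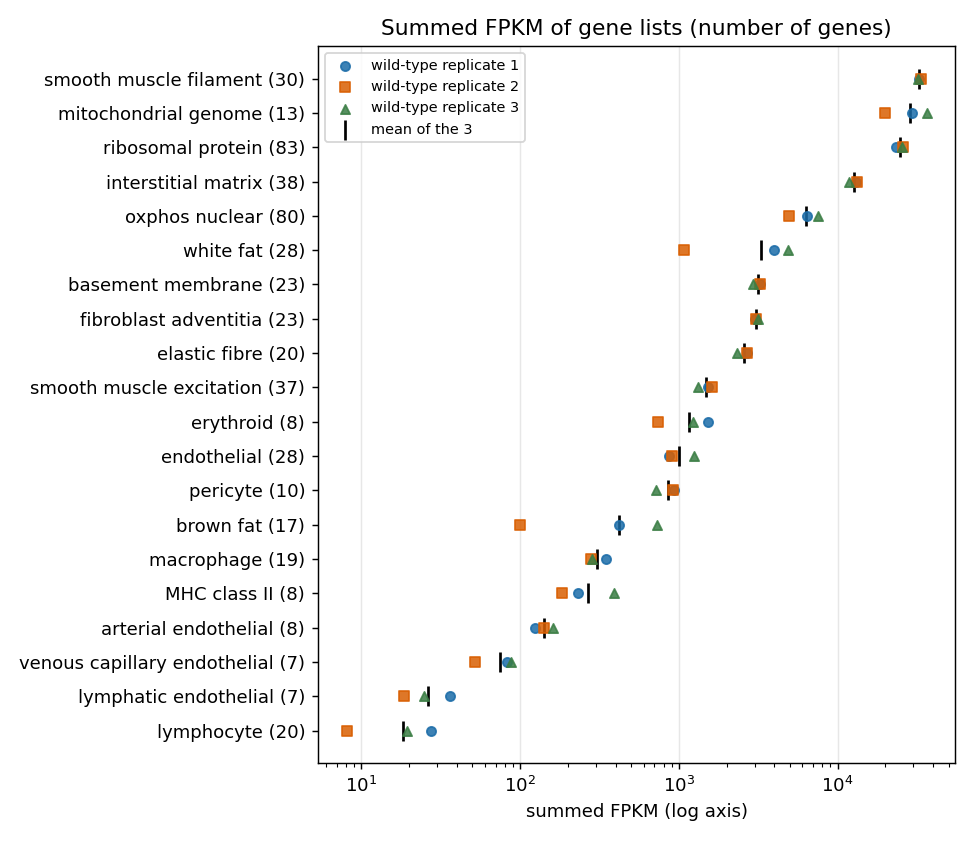
Summed FPKM of 20 gene lists in wild-type aorta on a log axis, with the number of genes in parentheses, 1 point for each library and a bar at the mean. White fat, brown fat and erythroid genes are lowest in replicate 2, while the filament, matrix and fibroblast sums of the 3 libraries lie closer together.

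Of the 12118 expressed genes, 460 (3.80%) had a highest to lowest ratio of at least 2 between libraries, computed on FPKM + 1. The median ratio over expressed genes was 1.18. The number was 176 without replicate 2, 163 without replicate 3 and larger without replicate 1, as the range in the closing section shows. For any gene, a ratio over 2 libraries cannot exceed that over 3, so a fall is partly built in. The number was 805 with 0.1 added in place of 1, and 160 when a mean of 10 FPKM was required. In replicate 2, 119 genes (0.982% of expressed genes) lay at least 2-fold below both other libraries and 11 (0.0908%) at least 2-fold above them. In replicate 3 the counts were 41 below (0.338%) and 60 above (0.495%), and in replicate 1 they were 5 below (0.0413%) and 7 above (0.0578%). White or brown fat list members made up 30 of the 119 genes low in replicate 2, and those 30 were 73.2% of the 41 fat genes expressed.

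**Figure D3:**
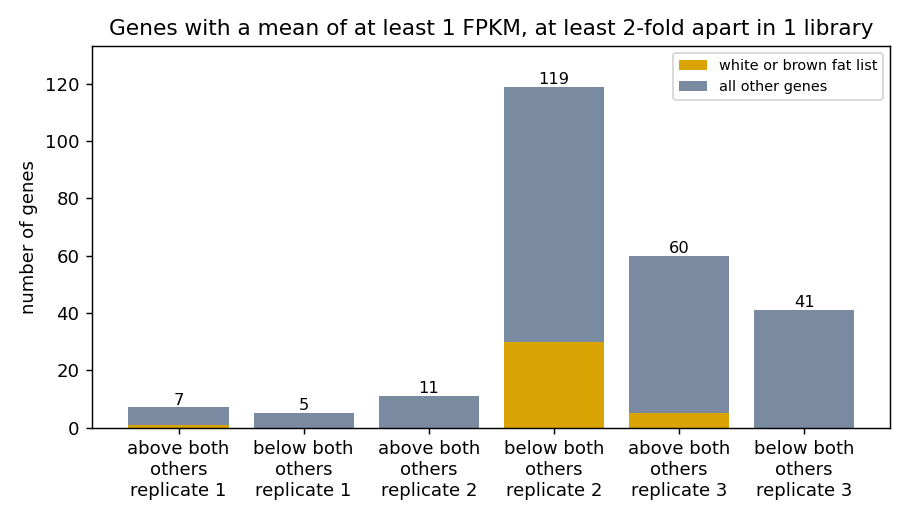
Number of expressed genes that lay at least 2-fold above or below both other libraries in each replicate, with members of the fat lists in yellow. Replicate 2 has the tallest bar, 119 genes below, of which 30 are fat genes.

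Outside the fat lists, replicate 2 was at least 2-fold below both other libraries in 2 of 6 expressed venous and capillary endothelial genes and 2 of 5 lymphatic genes, beside 0.982% of all expressed genes. Gpihbp1, which anchors lipoprotein lipase on capillary endothelium, stood at 6.94, 0.289 and 7.91 FPKM. The complement-regulated gene Rgcc stood at 38.4, 8.15 and 36.5 FPKM and the lymphatic chemokine Ccl21a at 8.66, 0.778 and 7.38 FPKM. Other members did not share the low value: the venous transcription factor Nr2f2 stood at 22.5, 23.0 and 22.3 FPKM, Ephb4 at 14.4, 17.3 and 17.2 FPKM, and the lymphatic gene Pdpn at 5.75, 7.75 and 4.17 FPKM. Pan-endothelial Pecam1 did not show it either. Globin transcripts, carried by red cells in blood, were also lower there: Hbb-bs stood at 719, 342 and 574 FPKM, although the globin genes have near-identical copies whose reads the counting may have split. Pttg1, which encodes securin, was almost missing from replicate 2, at 19.6, 0.475 and 26.4 FPKM. Nuclear genes of oxidative phosphorylation summed to 6380, 4957 and 7503 FPKM, the order of the fat sums. This list shares Cox8b and Cox7a1 with the brown fat list, so the sums are not independent. Its highest member, Atp5b, stood at 414, 310 and 487 FPKM. Whether the fat, capillary, globin and oxidative genes share a source was not tested.

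**Figure D4:**
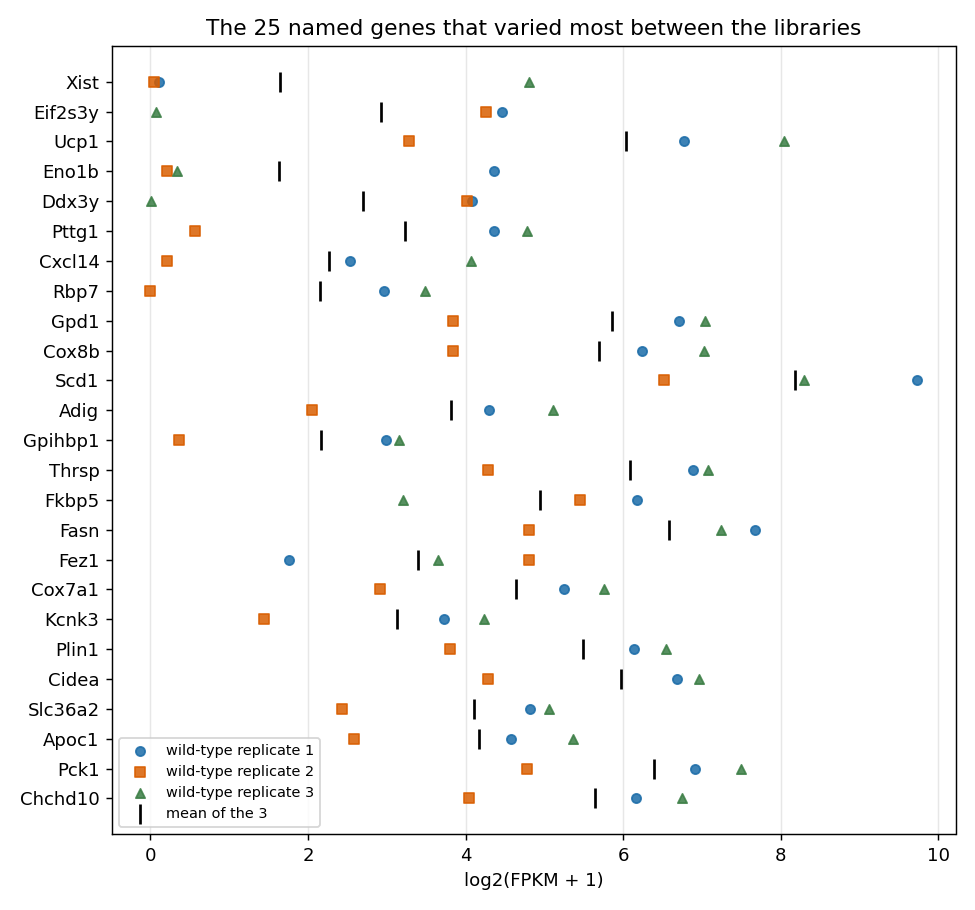
Level on the log2(FPKM + 1) scale of the 25 named genes averaging 5 FPKM or more that varied most, with 1 point for each library and a bar at the mean. Most are fat genes with replicate 2 at the left, and Xist, Eif2s3y and Ddx3y separate replicate 3 from the other libraries.

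Replicate 3 differed from the others in sex-linked genes. Xist, the RNA that coats the inactive X chromosome, was measured at 0.0738, 0.0291 and 26.9 FPKM. The Y-linked genes Eif2s3y and Ddx3y stood at 21.0, 18.2 and 0.05 FPKM and at 15.9, 15.2 and 0.00846 FPKM. The pattern in replicate 3 is that of tissue from females and the pattern in replicates 1 and 2 that of tissue from males, which the labels do not record. Any other value that sets replicate 3 apart therefore cannot be told apart from sex in these 3 libraries.

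Several groups set replicate 3 apart. Fkbp5, a glucocorticoid-induced co-chaperone, stood at 71.6, 42.8 and 8.19 FPKM and Zbtb16, another glucocorticoid-induced gene, at 64.2, 51.9 and 12.2 FPKM. These 2 genes were the only ones of 12 glucocorticoid-responsive genes, a list assembled after values had been seen, that lay at least 2-fold below both other libraries in replicate 3, beside 0.338% of all expressed genes. Most other members were also lowest in replicate 3, by less: Mt1, Mt2, Klf9, Per1, Tsc22d3, Sgk1 and Cdkn1a. Tsc22d3 stood at 56.5, 44.9 and 40.3 FPKM and the metallothionein gene Mt2 at 151, 88.0 and 65.4 FPKM. Pdk4, Ddit4 and Errfi1 were instead highest there, with Pdk4 at 45.8, 14.7 and 50.4 FPKM and Ddit4 at 13.4, 15.9 and 19.5 FPKM. Rgs5 is also on the pericyte list. The pericyte list without Rgs5 was steady, at 702, 695 and 663 FPKM. Several genes of the feedback on BMP and TGF-beta signalling had their lowest value in replicate 3, with Id1 at 113, 98.0 and 49.7 FPKM, Smad6 at 36.6, 39.3 and 15.6 FPKM and Atoh8 at 48.2, 41.6 and 14.6 FPKM. Of the 11 genes in that list, also assembled after values had been seen, 4 lay at least 2-fold below both other libraries there, beside 0.338% of all expressed genes. Bambi, a decoy receptor, had its highest value there, at 4.46, 5.49 and 8.24 FPKM, and Ski stood at 91.9, 105 and 90.9 FPKM. The complement gene C7 and the Wnt inhibitor gene Wif1 also lay below, at 86.5, 107 and 24.8 FPKM and at 15.2, 13.9 and 4.05 FPKM.

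Several interferon-inducible genes had their highest value in replicate 3. The immunity-related GTPase genes Iigp1 and Igtp stood at 3.86, 3.31 and 14.0 FPKM and at 3.98, 3.84 and 13.4 FPKM, and the guanylate-binding protein gene Gbp4 at 2.35, 3.17 and 9.87 FPKM. Of 25 interferon and MHC class I genes 23 were expressed, and 9 of them lay at least 2-fold above both other libraries in replicate 3, beside 0.495% of all expressed genes. The list was assembled after these values had been seen, so its count describes the libraries only. Classical class I genes moved less, with H2-K1 at 180, 179 and 258 FPKM, and the H2-Q genes are near-identical copies whose reads are uncertain. MHC class II genes of antigen-presenting cells summed to 232, 184 and 389 FPKM, while the macrophage list summed to 349, 277 and 282 FPKM.

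Genes of the mitochondrial genome held 7.70%, 5.36% and 9.28% of FPKM in the 3 libraries. mt-Co1, a cytochrome oxidase subunit, was the highest gene of all by mean, at 9306, 6026 and 10898 FPKM, and mt-Cytb followed Acta2 at 6413, 3901 and 8291 FPKM. Within that genome the levels fell into separate ranges. The 7 genes mt-Nd1, mt-Nd2, mt-Co1, mt-Nd4, mt-Nd5, mt-Nd6 and mt-Cytb averaged between 1324 and 8743 FPKM, whereas the 6 genes from mt-Co2 to mt-Nd4l, which lie side by side between positions 7013 and 10173, averaged between 0.0636 and 31.8 FPKM. Searched with blastn against GENCODE M21 transcripts, 5 of these 6 genes had a nuclear pseudogene on chromosome 1 that matched over at least 99.0% of the gene at an identity of 99.7% or more. Those pseudogenes held reads of their own: the copy of mt-Co2, Gm28661 in GENCODE, stood at 37.3, 29.9 and 44.2 FPKM beside 30.8, 26.8 and 37.7 FPKM for mt-Co2. No such transcript was found for mt-Atp8. Only transcripts were searched, and mt-Atp8 lies between mt-Co2 and mt-Atp6 and overlaps mt-Atp6, so its low level is uncertain as well. The levels of the 5 genes with such a copy are therefore uncertain. So is that of mt-Nd4, 63.6% of which matched another chromosome 1 pseudogene at 100%. The share of the mitochondrial genome and the place of mt-Co1 above mt-Co2 and mt-Co3 carry the same uncertainty. How reads matching several places were counted is not given in the sources used here.

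**Figure D5:**
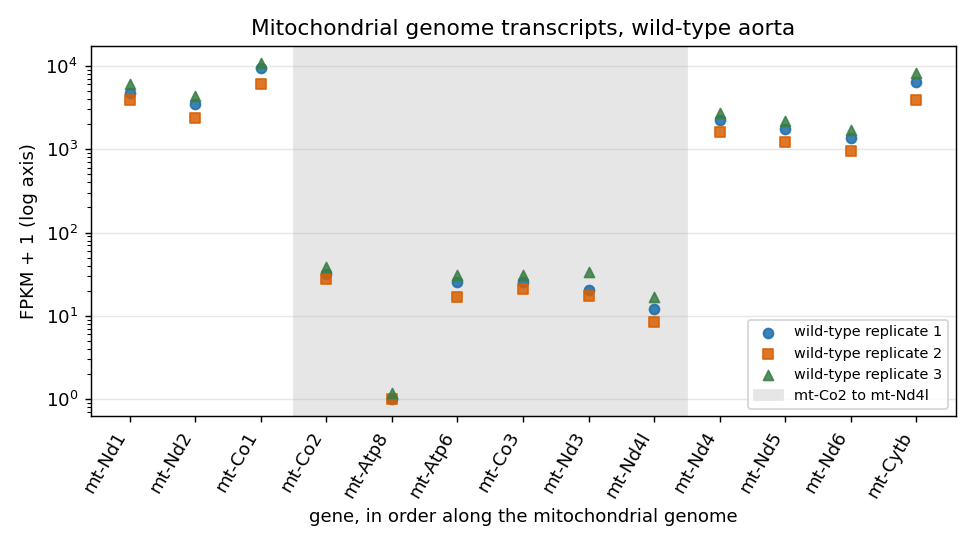
FPKM + 1 of the 13 mitochondrial protein genes on a log axis, in their order along the mitochondrial genome, with 1 point for each library. The shaded 6 genes average at most 31.8 FPKM, while the 7 outside average at least 1324 FPKM.

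The row named Yam1 (ENSMUSG00000098178, chromosome 17, 39846958-39848788, plus strand) was the fourth gene by mean, at 4434, 6168 and 4558 FPKM. In RefSeq (GRCm38.p6), 68.0% of its span lies in Rn18s-rs5, an 18S ribosomal RNA pseudogene. The value can therefore include reads of ribosomal RNA, and it is uncertain as the level of a separate gene. Replicate 2, the lowest in mitochondrial transcripts, was the highest in this row.

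Many markers of tissues that could adhere to the aorta were near 0. Keratins Krt5 and Krt14 and the surfactant gene Sftpc were listed at 0 in all 3 libraries, as were the mesothelial genes Muc16 and Upk1b and the catecholamine enzymes Th and Dbh. Other members of the same lists were expressed: the neuronal hydrolase gene Uchl1 stood at 50.8, 45.4 and 26.2 FPKM, the neuronal gene Stmn2 at 4.07, 4.28 and 7.91 FPKM and the simple epithelial keratin Krt18 at 6.65, 9.83 and 6.28 FPKM. The mesothelial list of 8 genes summed to at most 0.961 FPKM. Cardiac muscle genes were low apart from Tcap, at 250, 315 and 256 FPKM. The other 14 summed to 18.6, 11.1 and 38.6 FPKM. Of the 10 expressed cardiac genes, 5 lay at least 2-fold above both other libraries in replicate 3, beside 0.495% of all expressed genes. Of those 5, Myl2, Tnnc1, Myl3 and Myh6 reached a mean of 1 FPKM only through replicate 3, with Myl2 at 0.714, 0 and 3.76 FPKM. The filter itself therefore raised this count, which describes the libraries only. Skeletal muscle genes summed to 13.4, 12.8 and 15.6 FPKM. Schwann cell genes without Pmp22 summed to 20.8, 19.3 and 26.04 FPKM. Lymphocyte genes, of which 2 of 20 were expressed, summed to 27.4, 8.09 and 19.4 FPKM, with replicate 2 the lowest. Those 2 were immunoglobulin genes: Igkc at 13.5, 1.48 and 8.07 FPKM (103, 12 and 67 reads) and Ighm at 7.79, 4.64 and 6.64 FPKM. The part of these lists in the differences between the libraries was not tested.

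Steady genes gave the other end of the range. Among genes averaging 50 FPKM or more, Npnt, which encodes the matrix protein nephronectin, stood at 340.01, 339 and 341 FPKM and was among the 10 steadiest. Ppp2r1a, Nono, Chmp4b, Mbd2, Prelid1, Hnrnpa3, Rpl36a and Rpl36al were also among them. By comparison, the common reference gene Gapdh stood at 538, 432 and 495 FPKM and Eef1a1 at 2577, 2857 and 2851 FPKM.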

How the data were processed

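Whole mouse aorta was profiled by RNA-seq, and the authors deposited FPKM per gene with gene lengths. Per the submitters' processing notes, STAR, HTSeq and edgeR were used with mm10. No tool version, annotation or strand setting is named there. Only the 3 wild-type columns were read, and 3 other per-sample columns were not used. FPKM multiplied by length gave whole reads within 0.05 for 100% of values, which gave the depths. Ratios between libraries were taken on FPKM + 1 with Python 3.11.15, pandas 2.3.3 and numpy 2.4.6, over genes averaging 1 FPKM or more. The procedure was tested on simulated reads that held counting error only, without variation between animals. Planted changes were larger than 2-fold and in genes averaging at least 10 FPKM, so detecting smaller changes or lower genes was not covered. The members and lists were chosen with earlier results of these data known, and 4 lists (glucocorticoid, interferon, BMP feedback, actins) were added after values were seen. Named genes were the 30 highest by FPKM and 10 by reads, the 6 cell markers, up to 6 per list, and, by spread, the 25 most variable, 8 furthest above or below per library and 10 steadiest, of which the text gives a part. Of 578 list symbols, 578 matched, 8 by an older symbol. RefSeq promoters and blastn 2.17.0 against GENCODE M21 served for sequences. Alternatives are in the closing section. Some genes that the naming rule or a count covers are not reported here.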

Additional observations from a re-analysis of the deposited data

How the results depend on the processing

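No paired analysis was possible because only 1 group of libraries was described. Without mitochondrial transcripts the 10, 100 and 1000 highest genes held 10.6%, 27.4% and 59.9% of FPKM, and by reads they held 8.89%, 24.9% and 56.0%. By reads, the filament list held 8.08%, elastic fibre genes 0.957%, adventitial fibroblast genes 0.728% and mitochondrial genes 3.57%. A pseudocount of 0.1 raised the number of genes with a ratio of at least 2 to 805, and a filter at 10 FPKM lowered it to 160. Leaving out each replicate in turn gave 163 to 369 such genes. With a pseudocount of 0.1, 18 genes lay above and 31 below in replicate 1, 20 and 214 in replicate 2, and 115 and 77 in replicate 3. With the filter at 10 FPKM, 1 lay above in replicate 1, 3 above and 49 below in replicate 2, and 10 above and 20 below in replicate 3. Among protein-coding genes, 2 lay below in replicate 1. Equal-total and median-of-ratios scaling changed none of these counts by more than 1.5 times. Depth limits only low genes, and the number of libraries limits the precision.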

Other observations

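Among 47 genes of aortic position, 24 were expressed, and Gata6, a transcription factor of vascular smooth muscle, led at 33.5, 35.7 and 35.5 FPKM. Hoxb6 stood at 16.3, 20.9 and 21.7 FPKM and Hoxa7 at 16.8, 18.3 and 19.8 FPKM. Among posterior Hox genes, Hoxd11, Hoxd12, Hoxd13, Hoxa11, Hoxb13 and Hoxc11 were listed at 0 in all 3 libraries, as was Hoxd1 of an anterior group. Other posterior members were not at 0. Hoxb9, at 2.10, 2.49 and 1.42 FPKM, and Hoxa9, at 1.60, 1.18 and 1.68 FPKM, were expressed. Hoxa10 stood lower, at 0.742, 0.512 and 0.698 FPKM. Hoxa13 and Hoxc13 held 1 read each, and Hoxc12 stood at 0, 0.232 and 0.453 FPKM. Of 16 genes of the circadian clock 15 were expressed, and the median of the 16 means was 22.7 FPKM. Dbp led at 155, 207 and 150 FPKM, followed by Nr1d1 at 140, 164 and 141 FPKM. Ciart, a repressor of the clock, stood at 21.2, 19.6 and 7.74 FPKM and was the member with a highest to lowest ratio of at least 2. Arntl, which encodes the clock activator BMAL1, stood at 0.481, 0.425 and 1.53 FPKM. Immediate early genes were present in every library, with Nr4a1 at 97.2, 108 and 137 FPKM and Fos at 54.7, 58.0 and 39.0 FPKM, and Il6 was listed at 0. Among genes of the cell cycle, Top2a stood at 0.389, 0.495 and 0.291 FPKM, and Mki67, Cdk1 and Ccnb1 also averaged less than 1 FPKM. Other members were expressed: Ccnd2, with a mean of 52.2 FPKM, Pcna, with a mean of 31.6 FPKM, Cdkn1a, Cdkn1c, Ccnd1, Mcm3, Mcm2 and Mcm5.

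The genes higher in replicate 2 were unevenly spread over the genome. Of the 11 genes that lay at least 2-fold above both other libraries there, 7 were on chromosome 9, which carries 682 of the 12118 expressed genes (5.63%). Among them were Fez1, Clmp, 2310030G06Rik, Rab6b, Rpl29 and Osbpl10, named after their values had been seen. Fez1, which encodes a protein of axonal transport, stood at 2.38, 26.9 and 11.5 FPKM, and Rpl29, a ribosomal protein gene with near-identical copies, at 106, 254 and 115 FPKM. The first and last of the 7 genes start at positions 36821939 and 114978569. Eno1b, a copy of the enolase gene Eno1 whose reads may be split with it, stood at 19.6, 0.159 and 0.266 FPKM, far higher in replicate 1. The cause of these differences was not tested.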
